A study of Mus musculus with 234 samples.

Results

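The genes described here are 5 actin genes (*Actc1*, *Acta1*, *Acta2*, *Actb* and *Actg1*) and 2 tropomyosin genes (*Tpm1* and *Tpm2*), 7 of the 55538 features counted in single cardiomyocytes (CMs). They were chosen by name, and each name occurred once in the table. The CMs were isolated from the dissociated hearts of 5 mice, picked by hand and sequenced with SMART-seq2, a method that reads whole transcripts and adds no molecular identifiers. In the transgenic mice, PGK-Cre had removed a floxed STOP cassette in the Rosa26 locus. The CAG promoter, which is active in most cell types, then drove human BAG3P209L fused to eGFP. In hearts, the study detected this fusion by immunofluorescence in CMs only. BAG3 is a co-chaperone located at the Z-disc, and the mutation causes a childhood cardiomyopathy.

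There were 2 control mice, M26 with 24 and M73 with 9 CMs. The labels give these mice as strain C57BL/6, while the study describes its controls as littermates on a mixed background that could carry PGK-Cre or the undeleted transgene. The 2 homozygous mice were M25, with 21 bright and 18 dim CMs, and M116, with 59 bright and 50 dim CMs, where brightness refers to eGFP fluorescence and homozygous refers to the floxed allele, of which 1 or both copies could have lost the STOP cassette. The single heterozygous mouse M72 had 27 bright and 26 dim CMs. Control and homozygous mice were 2 weeks old. The age of M72 is not given, and the mice were not matched for sex. Mice M25 and M26 were in library set GL-9122b and the others in set GL9989, where M73 and M72 shared a plate and M116 filled the other 2. Only 2 mice represent each of the control and homozygous groups, so a value that differs between the mice cannot be separated from set, plate or background.

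Actin filaments of the sarcomere consist almost entirely of α-actins. *Actc1* encodes the cardiac form and *Acta1* the skeletal form, which is abundant in the fetal heart and is known to return in stressed myocardium. *Acta2* encodes smooth muscle α-actin, which CMs use transiently during development, while *Actb* and *Actg1* encode the cytoplasmic β- and γ-actins. Tropomyosin dimers lie along the filament and, together with the troponins, regulate access of myosin. *Tpm1* is the main tropomyosin gene of the mouse heart, and *Tpm2* encodes β-tropomyosin, which is abundant in skeletal muscle.

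The first 60 coding bases are given here because reads of these genes can only be told apart where their sequences differ. They are taken from GENCODE M21 (GRCm38), and capitals mark bases that differ from the aligned base of *Actc1*, or of *Tpm1* for *Tpm2*. *Actb* and *Actg1* (1125 coding bases against 1131 in *Actc1*) are aligned with a gap of 6 bases after their start codon, and their last 6 bases are compared with *Actc1* bases past the stretch shown:
Actc1: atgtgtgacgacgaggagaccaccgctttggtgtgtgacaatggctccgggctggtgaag
Acta1: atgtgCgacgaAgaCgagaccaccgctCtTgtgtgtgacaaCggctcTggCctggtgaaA
Acta2: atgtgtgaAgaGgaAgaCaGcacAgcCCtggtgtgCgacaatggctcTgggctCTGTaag
Actb: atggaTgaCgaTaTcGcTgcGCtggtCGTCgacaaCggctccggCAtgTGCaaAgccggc
Actg1: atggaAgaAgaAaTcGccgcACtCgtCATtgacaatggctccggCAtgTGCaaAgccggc
Tpm1: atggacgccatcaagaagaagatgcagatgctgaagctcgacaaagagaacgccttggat
Tpm2: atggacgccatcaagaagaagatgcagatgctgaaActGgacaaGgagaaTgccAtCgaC

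Over the whole coding sequence, *Actc1* and *Acta1* were identical at 86.3% of aligned bases with a longest shared run of 29 bases, and *Tpm1* and *Tpm2* at 75.6% with a longest run of 35 bases. Both runs are shorter than a read of 75 bases. None of the 75-base words of the *Actc1*, *Acta2*, *Tpm1* and *Tpm2* transcripts occurred in a transcript of another gene, against 0.437% of those of *Acta1* and 2.60% of those of *Actb*. The exception was *Actg1*, for which 54.5% of the words also occurred in transcripts of other genes, 10 in all, including *Gm12715*, *Gm8399* and *Actg-ps1*. Because only uniquely mapped reads were counted, the level of *Actg1* relative to the other actins is uncertain.

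A second set of sequences shows the CArG box, the element bound by serum response factor (SRF), through which actin genes are known to be switched on when free actin monomers are scarce. The box reads CC, then 6 bases that are A or T, then GG, and it was sought on both strands from 250 bases before to 50 after each RefSeq gene start (GRCm38.p6). It was present in 3 of the 6 members with a promoter in this reference and in 1.81% of 27025 genes. Capitals mark the box with 10 bases on either side, read on the minus strand on which all 3 genes lie:
Actc1, chr2:114052903-114052932: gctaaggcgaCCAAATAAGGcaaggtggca
Acta1, chr8:123894829-123894858: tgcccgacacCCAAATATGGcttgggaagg
Actg1, chr11:120348566-120348595: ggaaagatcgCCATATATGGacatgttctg
The box began 47, 73 and 90 bases before the start of *Actc1*, *Acta1* and *Actg1*. The same letters did not occur in the window of *Acta2*, *Tpm1* or *Tpm2*.

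The depth of a cell ranged from 487 to 1392253 counts (median 711527), and the sums over the cells of a mouse and brightness class, 8 in all, held between 4096609 (M73) and 40508124 (M116 bright). Transgene counts (hBAG) were 0.408 and 0.488 CPM (counts scaled to a common total of 1000000) in the control sums, 294 and 233 CPM in the bright and 10.7 and 99.6 CPM in the dim sums of M25 and M116. In M72, the cells labelled bright had 105 and those labelled dim 251 CPM, the reverse of their labels. The summed CM markers reached 56830 to 83005 CPM, with all 8 markers detected in each sum. However, 3 wells labelled M25 bright stood below 10000 CPM of CM markers (517, 1795 and 4513 CPM). In 1 of these, fibroblast markers reached 50104 CPM (*Dcn* 19050 CPM) and cytoplasmic actins made up 96.9% of actin counts. Without these wells, the M25 bright sum changed from 20480 to 22030 CPM for *Actc1*, from 9277 to 9979 CPM for *Tpm1*, from 237 to 161 CPM for *Actb* and from 45.7 to 38.3 CPM for *Actg1*. *Acta1*, *Acta2* and *Tpm2* were less affected, with 59.05, 819.6 and 2.39 CPM against 55.2, 762 and 2.22 CPM.

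The CMs expressed *Actc1* and *Tpm1* at very high levels, *Acta2* at an intermediate level and *Tpm2* hardly at all. Per kilobase of transcript, the level of *Actc1* in the 8 sums was 8108 to 14906 CPM per kb and that of *Tpm1* 4636 to 6344, and these held the first and second place in all 8 sums. *Acta2* followed with 118 to 796 CPM per kb and took the third place in 7 sums. Its level and that of *Actb* (87.1 to 143 CPM per kb) did not overlap except through control mouse M73, in which *Actb* was higher (129 against 118 CPM per kb). *Acta1* covered the widest range, from 1.69 to 365 CPM per kb, overlapping *Acta2*, *Actb* and *Actg1* (8.88 to 37.7 CPM per kb), so its place in the order ranged from the fourth to the sixth. *Tpm2* was last in all sums with at most 9.06 CPM per kb.

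**Figure D1:**
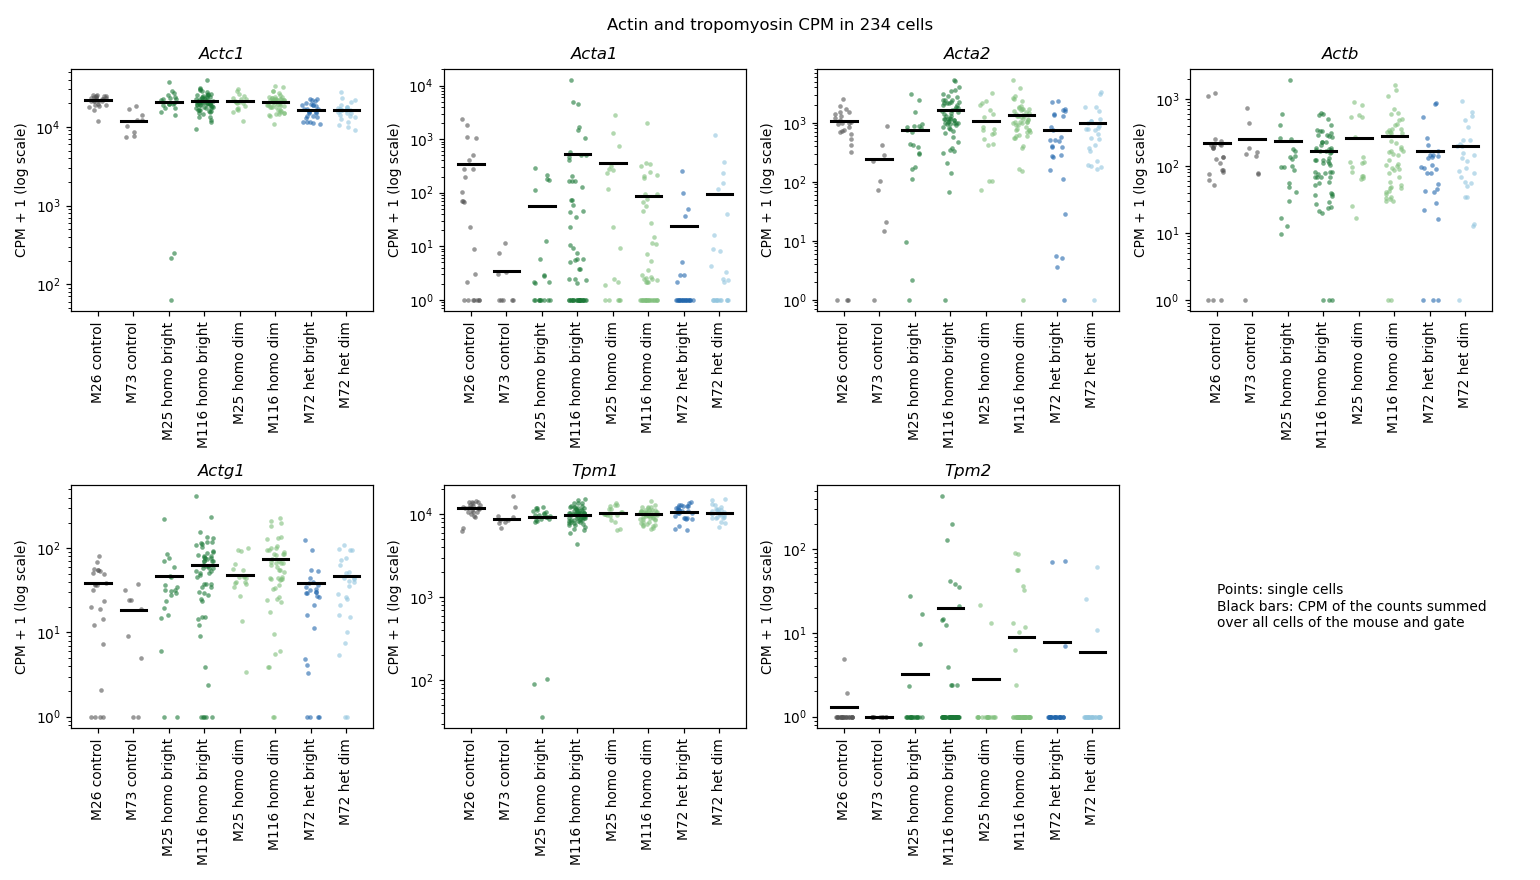
CPM + 1 (log scale) of the 7 genes in each of the 234 cells (points), arranged by mouse, genotype and brightness, with the CPM of the summed counts as black bars. *Actc1* and *Tpm1* form tight bands in every mouse apart from the 3 low wells of M25 bright, whereas *Acta1* extends from no count to 12930 CPM and *Tpm2* has a count in 39 cells.

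*Actc1* had a count in all 234 cells. In the control sums it reached 21957 CPM (M26) and 11944 CPM (M73), in the bright sums 20480 (M25) and 21030 (M116), in the dim sums 21180 and 20483, and in M72 16303 (bright) and 16525 CPM (dim). The homozygous sums lay within 1000 CPM of each other and between the control mice, except that M25 bright was just above M26 without the low wells. The 3 sums of the plate shared by M73 and M72 were the lowest of the 8, and plate and mouse cannot be told apart here. Over cells with at least 1000 genes, the coefficient of variation of *Actc1* was 11.8% in M26, 35.5% in M73 and 22.1 to 25.7% in M25 dim and both M116 classes. In bright CMs of M25 it was 42.7%, with 2 of the 3 low wells among these cells. *Actc1* was 62.4, 214 and 247 CPM in the low wells.

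Of all counts on the 5 actin genes, *Actc1* accounted for 93.0% (M26) and 95.9% (M73) in control, 94.9% and 89.8% in homozygous bright, 92.49% and 92.02% in homozygous dim and 94.4% and 92.5% in heterozygous CMs labelled bright and dim. The bright CMs of M116 had the lowest share and, within the 5 actins, the highest of both *Acta2* (6.92%) and *Acta1* (2.26%).

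*Acta1* differed most between mice among the actins. Its level in the control sums was 340 CPM in M26 but 2.44 CPM (10 counts) in M73, so that the control mice alone spanned most of its range. In the bright sums it was 55.2 (M25) and 528 CPM (M116) and in the dim sums 353 and 85.7 CPM. The bright CMs thus had less *Acta1* than the dim CMs in M25, but more in M116. In M72 it was 23.3 CPM in cells labelled bright and 92.5 CPM in those labelled dim.

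Within the sums, *Acta1* counts were concentrated in few cells. Of 40123 *Acta1* counts in the whole series, 4 of 234 cells held 50%, 3 cells 44.5% and 10 cells 73.2%, although 134 cells had at least 1 count. For comparison, 50% of the *Actc1* counts were spread over 71 cells, of *Tpm1* over 76, of *Actg1* over 47, of *Acta2* over 45 and of *Actb* over 28 cells. The median cell had 67.5 CPM of *Acta1* in M26 and between 0 and 15.1 CPM in the other 7 classes. Without the cell with most *Acta1* in each sum, the levels still ranged from 1.72 CPM in M73 to 262 CPM in M26 and 267 CPM in M116 bright. When each cell was reduced to 100000 counts, 13 of 20 CMs of M26 but 1 of 8 of M73 had an *Acta1* count, so the control mice differed beyond their highest cells.

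**Figure D2:**
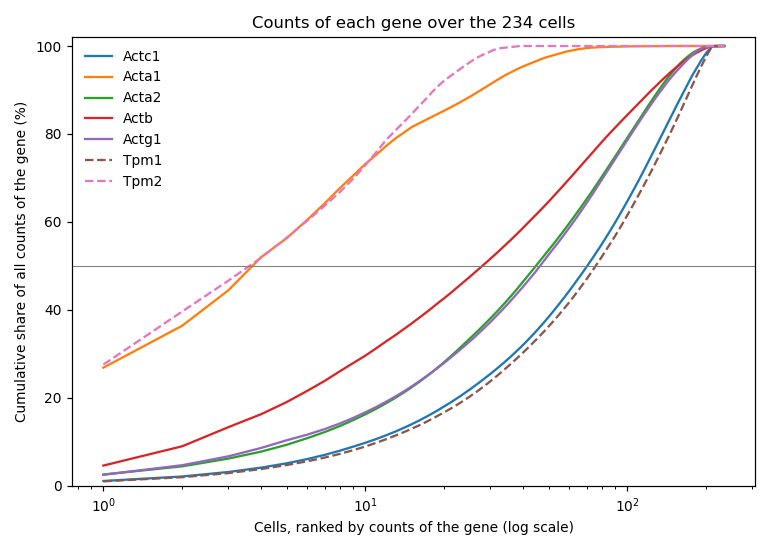
Cumulative share (%) of all counts of a gene against the number of cells, ranked from the cell with most counts of that gene (log scale), with a grey line at 50%. The curves of *Acta1* and *Tpm2* cross this line at 4 cells, those of *Actc1* and *Tpm1* at 71 and 76 cells.

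The 3 cells with the highest *Acta1* were all bright CMs of M116, with 12930, 4968 and 4501 CPM. In these, *Acta1* supplied 24.5%, 19.7% and 18.9% of the counts of both sarcomeric α-actins, while *Actc1* stayed high (39925, 20289 and 19319 CPM). They also carried *Ankrd1*, a stretch-responsive protein of the I-band, at 7670, 5243 and 1902 CPM. The natriuretic peptide gene *Nppa* was at 1794, 3339 and 1001 CPM. In the same cells the troponin gene *Tnni1* was 3230, 0 and 159 CPM and the myosin gene *Myh7* 293, 99.9 and 145 CPM. Their transgene counts (hBAG) were 324, 25.9 and 261 CPM. How these levels compare with those of other bright CMs was not tested. The next ranks did not belong to bright CMs: a dim CM of M25 (2781 CPM) was followed by a CM of control mouse M26 (2391 CPM), in both of which *Ankrd1* was lower (245 and 675 CPM). Among 219 cells with at least 1000 genes, *Acta1* made up 5% or more of both α-actins in 12, namely 5 bright and 1 dim CMs of M116, 1 bright and 2 dim CMs of M25, 3 CMs of M26 and none of M73 or M72. The bright cell of M25 among them was the well with fibroblast markers, with only 4 *Acta1* counts.

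As a share of *Acta1* and *Actc1* counts, *Acta1* amounted to 1.53% (M26) and 0.0204% (M73) in control, 0.269% (M25) and 2.45% (M116) in bright, 1.64% and 0.417% in dim, and 0.143% and 0.557% in heterozygous CMs labelled bright and dim. Mean shares were 0.773 ± 1.06% in control, 1.36 ± 1.54% in bright and 1.03 ± 0.865% in dim CMs (SD, n = 2 mice each). The difference between bright and control, 0.586 percentage points, was smaller than the spread between mice (two-sided exact permutation test, p = 0.667, where the smallest possible p is 0.333). Within library sets the difference took both signs, -1.26 points for M25 against M26 and 2.43 points for M116 against M73. Within M116, the bright CMs of the 2 plates had 209 and 861 CPM of *Acta1*, the dim CMs 110 and 49.9 CPM. Single cells held 74.5% and 63.2% of these counts in bright and 50.999% and 45.1% in dim CMs, and without them the plates had 55.2 and 331 CPM in bright and 55.6 and 29.4 CPM in dim CMs.

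**Figure D3:**
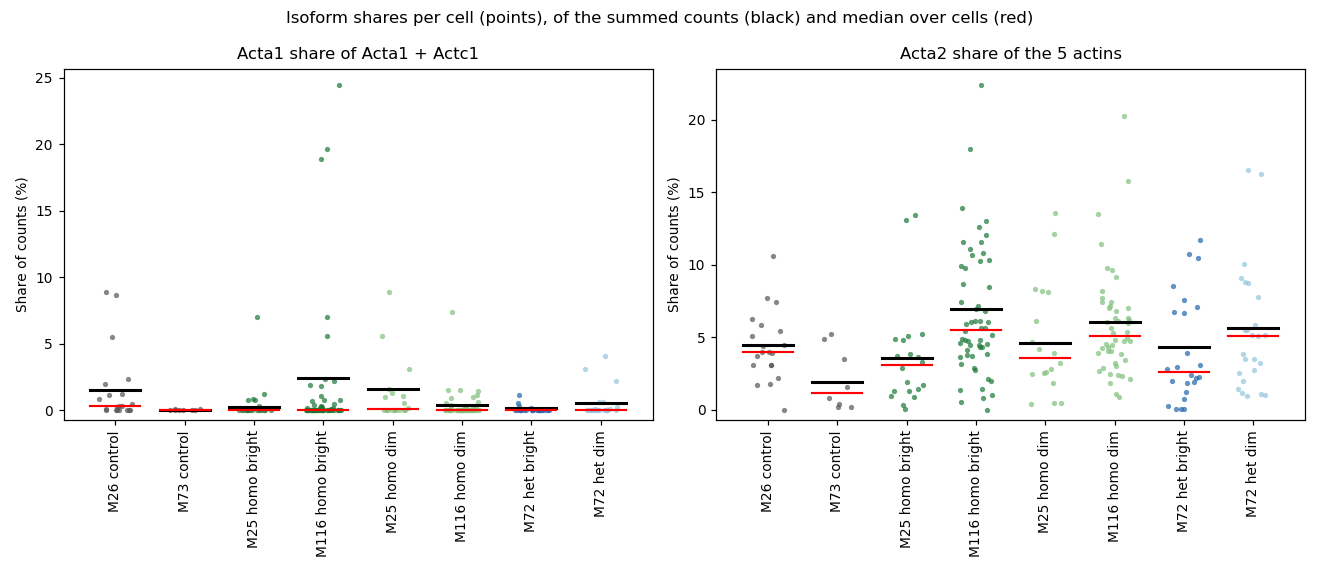
Share (%) of *Acta1* in *Acta1* and *Actc1* counts (left) and of *Acta2* in the counts of the 5 actins (right) for each cell with at least 1000 genes, with the share of the summed counts (black) and the median over cells (red). On the left, 3 bright CMs of M116 lie between 18.9% and 24.5% and medians stay near 0, whereas on the right the medians range from 1.17% in M73 to 5.49% in M116 bright.

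*Acta2* behaved differently and was spread over most cells, with a count in 225 of 234. The control sums had 1057 (M26) and 241 CPM (M73), the bright sums 762 (M25) and 1620 CPM (M116), the dim sums 1055 and 1343 CPM, and M72 747 and 1004 CPM in cells labelled bright and dim. M73 was the lowest of all sums and M116 bright the highest, while the remaining 6 lay between 747 and 1343 CPM. In the median cell, *Acta2* was 963 CPM in M26, 101.1 in M73, 439 and 1175 in bright and 763 and 1073 CPM in dim CMs of M25 and M116. The median therefore followed the sums, in contrast to *Acta1*.

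The cells with the highest *Acta2* also expressed CM genes. In the 20 cells with the highest *Acta2* (2426 to 5390 CPM), *Actc1* (at least 10982 CPM) and the myosin gene *Myh6* (at least 5145 CPM) were detected in all 20, whereas the smooth muscle genes *Myh11* and *Cnn1* were detected in none and *Tagln* in 1. Over all 234 cells, *Myh11* had 2, *Cnn1* 13 and *Tagln* 16 counts. The remaining smooth muscle marker, *Smtn*, was present in 204 cells and in all 20 of these with a median of 42.5 CPM. Pericyte markers, with 30.7 to 159 CPM in the sums, were not examined in these 20 cells. Of the 20 cells, 10 were bright and 5 dim CMs of M116, 2 were CMs of M72 labelled dim, and M26, M25 bright and M25 dim contributed 1 each.

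The share of *Acta2* in actin counts was 4.48% (M26) and 1.93% (M73) in control, 3.53% (M25) and 6.92% (M116) in bright, 4.61% and 6.03% in dim, and 4.32% and 5.62% in heterozygous CMs labelled bright and dim. Mean shares were 3.21 ± 1.80% in control, 5.22 ± 2.40% in bright and 5.32 ± 1.01% in dim CMs (SD, n = 2 mice each). Bright and control overlapped (exact permutation test, p = 0.667). Both dim shares lay above both control shares, by only 0.131 points in library set GL-9122b and by 4.10 points in set GL9989, and with 2 mice a group the exact permutation p of 0.333 is the smallest possible.

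The cytoplasmic actin *Actb* had the narrowest range of the less abundant actins. It was 222 (M26) and 248 CPM (M73) in control, 237 (M25) and 167 CPM (M116) in bright, 264 and 274 CPM in dim CMs, and 168 and 196 CPM in M72 cells labelled bright and dim. In the M25 bright sum, 36.8% of the *Actb* counts came from a single well, the one with fibroblast markers (1943 CPM). *Actg1* was 37.2 and 17.3 CPM in control, 45.7 and 63.02 CPM in bright, 47.2 and 73.6 CPM in dim CMs, and 37.96 and 46.3 CPM in M72. The same fibroblast well held 22.1% of the *Actg1* counts of M25 bright, which had 37.2 CPM without it, the level of M26. In the median cell M25 bright lay below M26 (30.9 against 33.3 CPM).

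*Actb* and *Actg1* together made up 1.10% and 2.13% of actin counts in control, 1.31% and 0.984% in bright and 1.36% and 1.56% in dim CMs. The means were 1.62 ± 0.732%, 1.15 ± 0.231% and 1.46 ± 0.145% (SD, n = 2 mice each), and both bright (exact permutation test, p = 0.667) and dim CMs (exact permutation test, p = 1) overlapped control. The overlap of the bright shares depended on the low wells. Without them M25 bright had 0.862%, both bright shares lay below both control shares, and the difference went from -0.470 to -0.694 points (exact permutation test, p = 0.333, the smallest possible). In 9 wells the share was at least 6%. Of these, 7 also carried *Pecam1* and 6 *Cdh5*, the defining endothelial genes, together with CM markers, and 6 carried the non-muscle tropomyosin *Tpm4*. The other two were the well with fibroblast markers and a well of M72 labelled bright that lacked all 3 genes. The part of adhering or co-picked cells in the cytoplasmic actin level was not tested.

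*Tpm1* was as evenly expressed as *Actc1* and was detected in every cell. It was 12041 (M26) and 8799 CPM (M73) in control, 9277 (M25) and 9799 CPM (M116) in bright, 10377 and 9963 CPM in dim CMs, and 10693 and 10480 CPM in M72. The homozygous sums fell between the control mice. Its coefficient of variation over cells with at least 1000 genes was 11.7% to 21.9%, apart from M25 bright with 2 of its low wells (36.5%).

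*Tpm2* had 1284 counts in the whole series and was detected in 39 cells, so these data hold information on rare cells only. In control there were 6 counts in 2 of 24 cells of M26 (0.306 CPM) and 0 counts in 9 cells of M73, where 3 counts would be 0.732 CPM. Bright CMs had 42 counts in 4 of 21 cells of M25 (2.22 CPM) and 770 counts in 14 of 59 cells of M116 (19.01 CPM). Dim CMs had 33 counts in 2 of 18 cells (1.80 CPM) and 273 counts in 11 of 50 cells (7.93 CPM), and M72 had 93 and 67 counts in 3 cells each. All sums of the transgenic mice were above both controls. M25 bright exceeded M26 7.25-fold, and M116 bright was 25.96-fold higher than M73 when the latter is set to 3 counts per sum. For dim CMs these values were 5.86-fold and 10.8-fold. The setting of 3 counts treats counts as independent, whereas *Tpm2* counts sat in few cells. With 9 cells in M73, these folds are therefore no lower bounds. Of the 6 counts of M26, 5 came from 1 cell.

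As with *Acta1*, 4 cells held 50% of the *Tpm2* counts, and the first and second cell were the same for both genes, namely bright CMs of M116 with 425 and 201 CPM of *Tpm2*. Without the highest *Tpm2* cell of each sum, M116 bright had 10.5 CPM, M25 bright 1.16 CPM and M26, left with 1 count, 0.0546 CPM. An *Acta1* count was found in 26 of 39 cells with *Tpm2* (66.7%) and in 108 of 195 cells without (55.4%). Even in the highest cell, *Tpm2* was 4.98% of both tropomyosins, and of the summed counts it was at most 0.194% (M116 bright). When each cell was reduced to 100000 counts, *Tpm2* remained in 0 of 20 CMs of M26 and 0 of 8 of M73, compared with 2 of 21 and 11 of 52 bright and 2 of 18 and 9 of 48 dim CMs of M25 and M116.

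The sums were then compared across all genes with edgeR (quasi-likelihood test, Benjamini-Hochberg adjustment), with 2 mice per group. For bright against control, 2 of 12203 genes passed an adjusted p of 0.05 (0.0164%), none of them a member. DESeq2 called 106. For dim against control, edgeR called 0 of 12195 genes (0%), with 759 at an unadjusted p under 0.05 (6.22%) and 55 by DESeq2. For bright against dim, edgeR called 0 of 13439 (0%), with 554 unadjusted (4.12%) and 89 by DESeq2. The median gene was shifted by 0.11 and 0.10 on the log2 scale in the comparisons with control, and by 0.41 and 0.38 with library size in place of TMM normalization, so changes of this size depend on the scaling.

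In bright against control CMs, no actin gene passed the test. The log2 fold change was -0.01 ± 0.32 for *Actc1*, 0.49 ± 1.71 for *Acta1*, 0.59 ± 0.66 for *Acta2*, -0.54 ± 0.34 for *Actb* and 0.69 ± 0.54 for *Actg1* (± SE, edgeR adjusted p 0.892 to 0.997). The sign for *Actc1* turned with library size in place of TMM (0.29). *Tpm1* had -0.44 ± 0.26 (adjusted p = 0.880, edgeR), and only -0.13 with library size as the scale. In bright CMs all 8 CM markers also lay below control (median log2 fold change -0.71), 4 with an unadjusted p under 0.05 against 6.55% of all genes, and their sums were 58915 (63286 without the low wells) and 56830 CPM in bright and 66713 and 83005 CPM in control. Their part in the values of *Tpm1* and of *Tnni3*, which is one of them, was not tested. *Tpm2* had the largest value, 5.43 ± 1.95 (3.34 to 10.8 when a mouse was left out), and was the only member among the genes with an unadjusted p under 0.05 (p = 0.0311, adjusted p = 0.663, edgeR). Since one control sum was 0, this fitted value depends on the prior count and is no bound. With 6 and 0 counts in control, *Tpm2* passed the filter on counts only through its bright sums. Its p-value is therefore no support for a difference.

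On the TMM scale, the 2 bright and 2 control sums did not overlap for 4 of 7 members, *Actg1* and *Tpm2* being higher and *Actb* and *Tpm1* lower, against 39.2% of all genes tested. The plain CPM values overlapped for *Tpm1*, and for *Actb* only with the low wells. *Actg1* of M25 bright was just above M26 on the TMM scale (42.2 against 39.1). Without the low wells, plain CPM of *Actg1* in M25 bright fell from 45.7 to 38.3, against 37.2 in M26. *Tpm2* passed the filter on counts only through its bright sums, so its place among the 4 is no support for a difference. Without the 3 low wells *Actb* was at -0.84 (adjusted p = 0.679, edgeR). Within library sets, the log2 ratio of *Tpm1* on the TMM scale was -0.56 for M25 against M26 and -0.30 for M116 against M73, whereas in plain CPM it was -0.38 and 0.16, so the direction in set GL9989 depended on the scaling. For *Acta1* the corresponding ratios on the TMM scale were -2.81 and 7.30 and for *Acta2* -0.66 and 2.29.

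**Figure D4:**
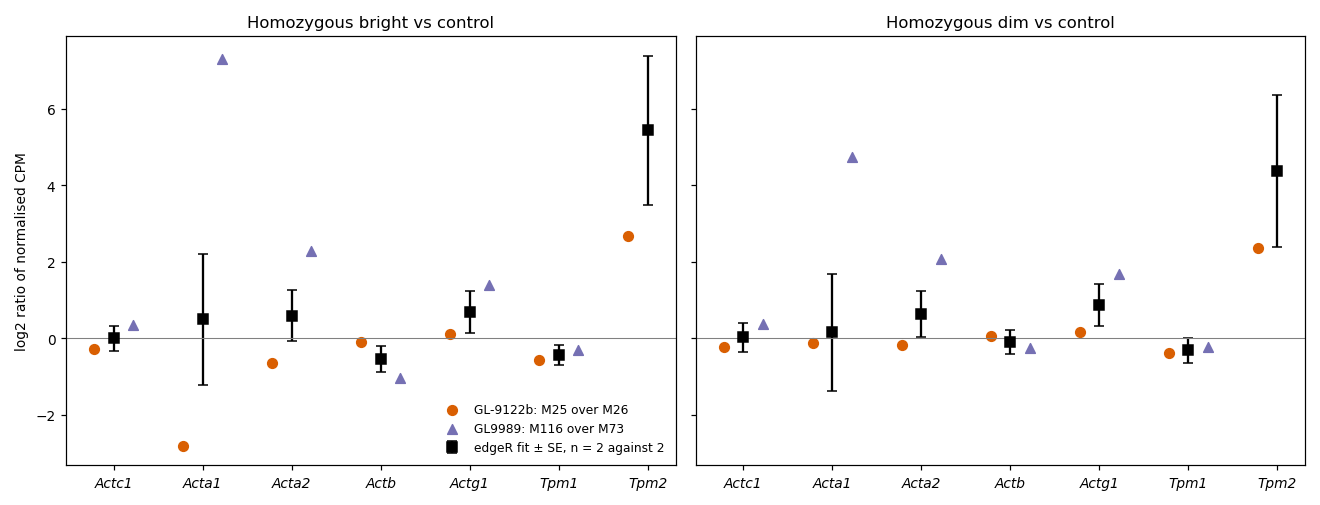
Log2 ratio of TMM-normalised CPM for homozygous bright (left) and dim CMs (right) over control CMs, from the edgeR fit with its standard error (black squares, 2 mice against 2) and for each library set, M25 over M26 (circles) and M116 over M73 (triangles). On this scale *Acta1* and *Acta2* lie below 0 in one set and above 0 in the other and *Tpm1* is below 0 in both (in plain CPM, *Tpm1* is above 0 in set GL9989, at 0.16 for bright and 0.18 for dim CMs, and *Acta1* is at 0.05 for dim CMs in set GL-9122b), and *Tpm2* has no ratio to M73, which had no count.

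Dim against control CMs, a comparison with the same control sums, gave 0.02 ± 0.38 for *Actc1*, 0.15 ± 1.54 for *Acta1*, 0.63 ± 0.60 for *Acta2*, -0.11 ± 0.31 for *Actb*, 0.86 ± 0.55 for *Actg1*, -0.32 ± 0.32 for *Tpm1* and 4.37 ± 1.99 for *Tpm2* (log2 fold change ± SE). None passed the test. In this comparison 7 of 8 CM markers were lower (median log2 fold change -0.67). Endothelial markers were higher in 5 of 6 (median 0.60) and immune markers in 5 of 5 tested (median 4.10). Fibroblast markers were higher in 6 of 7 and pericyte markers in 2 of 5, and the 1 smooth muscle marker tested was lower. Their part in the values of the members was not tested. *Actb* turned to 0.19 with library size as the scale. In plain CPM both dim sums of *Actb* lay above both control sums (264 and 274 against 222 and 248 CPM). The log2 ratios of plain CPM were 0.25 for M25 against M26 and 0.14 for M116 against M73. Groups did not overlap for 3 of 7 members, *Actg1*, *Tpm1* and *Tpm2*, against 38% of all genes, and the plain CPM values of *Tpm1* overlapped. *Tpm2* passed the filter on counts only through its dim sums here, so its place among the 3 is no support for a difference. Without control mouse M26, edgeR called 827 genes, among them *Acta1* (6.16, adjusted p = 0.0425) and *Acta2* (1.96, adjusted p = 0.0402). Both calls rest on M73 alone, and without M73 both values were negative (-0.83 and -0.04).

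Bright and dim CMs came from the same 2 homozygous mice. The log2 fold change was -0.04 ± 0.15 for *Actc1*, 0.31 ± 1.08 for *Acta1*, -0.05 ± 0.35 for *Acta2*, -0.43 ± 0.26 for *Actb*, -0.18 ± 0.31 for *Actg1*, -0.12 ± 0.15 for *Tpm1* and 1.08 ± 1.18 for *Tpm2*. No member had an unadjusted p under 0.05. For *Acta1*, the ratio was -2.70 in M25 and 2.58 in M116. Groups did not overlap for *Actb* and *Tpm1*, 2 of 7, against 31.1% of all genes, but without the low wells the plain CPM values of *Tpm1* did. In M72, the log2 ratio of CPM between cells labelled bright and dim was -1.99 for *Acta1*, -0.43 for *Acta2*, 0.44 for *Tpm2* and between -0.29 and 0.03 for the other 4.

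Across cells of a class, the members showed no uniform relation to transgene level. The Spearman correlation with hBAG in the 6 transgenic classes (18 to 56 cells each) ranged from -0.25 to 0.32 for *Acta1*, from -0.44 to 0.22 for *Acta2*, from -0.29 to 0.16 for *Tpm1* and from -0.31 to 0.36 for *Tpm2*. *Actc1* (-0.26 to 0.40) and *Actb* (-0.35 to 0.41) were positive in 5 of 6 classes and *Tpm1* in 1 of 6. The highest value of *Actb* was that of M25 bright, where the well with fibroblast markers had both 1943 CPM of *Actb* and 867 CPM of hBAG, and without the low wells it was 0.20 (18 cells). Cells of a class share the mouse, so these are descriptions. Between members, *Acta1* and *Acta2* were positively correlated in 8 of 8 classes (mean rho 0.23, range 0.02 to 0.38), as were *Actb* and *Actg1* (mean 0.22, 0.08 to 0.47, with 0.33 in M25 bright and 0.075 there without the low wells), while *Actc1* and *Acta1* averaged 0.08.

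Among 3257 features with a count in at least 50% of the cells of each class, the genes most like each member over cells were sought, as a mean Spearman correlation over the 8 classes. *Actc1* was most like the mitochondrial genes *COX1* (0.54) and *CYTB* (0.47), followed by *Hspb6*, *Atp5b* and *Ckmt2*, and *Tpm1* most like *Ndufs7* (0.50), *Eno3*, *Myl3*, *Mb* and *Slc25a4*. *Acta2* had its highest value with *Myl9* (0.41, between 0.32 and 0.59 in the 8 classes), a regulatory light chain of smooth muscle and non-muscle myosin, followed by *Slc31a1*, *Gja1*, *Rabgap1l* and *Mylk4*. *Actb* was most like *Tmsb4x* (0.47), which encodes the actin monomer-binding thymosin β4, followed by *Tcf4*, *Ptma*, *Ppia* and *Nfia*. *Actg1* reached 0.38 with *Myadm*, then *Dusp1*, *Arhgap29*, *Actr1a* and *Nktr*. *Acta1* had weaker values, 0.33 with *Cd151* and 0.30 with *Ankrd1*, then *Rsl1d1*, *Crot* and *Zkscan3*, and *Tpm2* the weakest (0.29 with *Ncoa6* over 7 classes, then *Fam168a*, *Ccz1*, *Il11ra1* and *Klc1*). In sparse counts such weak values are no finding.

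The other family members were low in these cells. *Actg2*, the enteric smooth muscle actin, did not exceed 1.64 CPM in any sum and *Tpm3* lay between 10.4 and 23.6 CPM. *Tpm4* was carried by few cells. It was 25.1 and 10.3 CPM in control, 11.5 and 14.8 CPM in bright and 35.6 and 55.8 CPM in dim CMs of M25 and M116. Bright and dim did not overlap (log2 fold change -1.82 ± 0.36, p = 0.00309, adjusted p = 0.999, edgeR), but in M72 the cells labelled bright had more (56.1 against 33.4 CPM). A single cell held 98.4% of the *Tpm4* counts of M26, 85.7% of those of M73, 51.9% of those of M25 dim and 60.6% of those of M72 labelled bright. Without the cell with most *Tpm4* in each sum, the values were 0.437 and 1.72 CPM in control, 8.07 and 10.2 CPM in bright, 18.3 and 39.9 CPM in dim CMs, and 23.7 and 20.9 CPM in cells of M72 labelled bright and dim. In M25 and M116 the endothelial markers were lower in bright CMs too: their sum was 64.6 and 78.1 CPM in bright and 176 and 174 CPM in dim CMs, 6 of 6 were lower in bright, 5 had an unadjusted p under 0.05 (4.12% of all genes), and none was at 0 in any sum. They had 98.2 CPM in cells labelled bright and 168 CPM in those labelled dim of M72, and 66.6 and 145 CPM in M26 and M73. The M26 cell with most *Tpm4* (381 CPM) itself carried *Pecam1*, *Cdh5* and 929 CPM of endothelial markers. Pericyte markers (36.8 and 30.7 against 69.5 and 88.6 CPM) and immune markers (0.264 and 2.00 against 72.7 and 62.5 CPM) were lower in the bright sums of M25 and M116 as well. Their part in the values of *Tpm4* and of *Actb*, which was also lower in bright CMs of both mice, was not tested.

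Genes that regulate or build the thin filament did not pass the test either. Of 16 thin filament regulators, 7 were higher and 9 lower in bright than in control CMs, with a median of -0.05 compared with 0.11 over all genes. The slow skeletal troponin I *Tnni1*, the fetal isoform, had 4.81 ± 0.81, its adult counterpart *Tnni3* -0.87 ± 0.29 and the slow troponin T *Tnnt1* -0.95 ± 0.53 (edgeR adjusted p 0.663 to 0.875). These 3 were named because their bright and control sums did not overlap, as was the case for 8 of the 16 regulators and 39.2% of all genes. In dim CMs, where 10 of the 16 and 38% of all genes did not overlap with control, they had 4.25, -0.80 and -0.97. Among 22 genes of actin assembly and turnover, 15 were higher and 7 lower with a median of 0.36, where 6597 of all 12203 genes were higher. The bright sums lay above both control sums for 9 of the 22 and below both for 5, against 39.2% of all genes in either direction. The filament-severing *Gsn* was at 2.94 ± 1.47, the monomer-binding *Twf1* at 1.72 ± 1.10 and the formin *Daam1* at -1.27 ± 0.62, none of which passed. In dim CMs all 3 overlapped control, with 0.96 ± 1.47, 0.96 ± 1.23 and -1.21 ± 0.61. *Gsn* is also abundant in fibroblasts, whose 7 markers were all higher in bright CMs in the fit (sums of 2537 and 77.9 CPM in M25 and M116, and 308 CPM in M25 without the 3 low wells, against 142 and 33.2 CPM in control). The part of these wells in *Gsn* was not tested.

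A further list held *Srf*, its cofactors *Myocd*, *Mrtfa*, *Mrtfb* and *Fhl2*, and *Vcl*, *Flna* and *Cnn2*, which encode the actin-binding proteins vinculin, filamin A and calponin 2. Of these 8 genes, 2 were higher and 6 lower in bright than in control CMs with a median of -0.25. The bright sums lay above both control sums for 0 and below both for 2, against 39.2% of all genes in either direction. In dim CMs 5 were higher and 3 lower with a median of 0.27. *Srf* had 0.37, *Vcl* -0.12, *Flna* -0.20 and *Cnn2* 0.28 in bright CMs, each overlapping control. *Mrtfa*, the actin-sensing coactivator of SRF, had -1.74 ± 1.19 and *Fhl2*, a LIM protein of the I-band, -1.003 ± 0.32 (adjusted p = 0.663, edgeR), with -2.50 and -0.69 in dim CMs. Of 12 genes for crosslinkers and Z-disc proteins, 6 were higher and 6 lower with a median of 0.06. The bright sums lay above both control sums for 4 of the 12 and below both for 1. *Ankrd1* had 2.50 ± 0.28, an unadjusted p of 9.46e-05 and an adjusted p of 0.289 in edgeR, with 1.74 ± 0.33 in dim CMs. The non-muscle α-actinin *Actn1* was at 2.06 ± 1.83 and *Pdlim5* at -0.71 ± 0.29, with 2.41 and -0.56 in dim CMs. Of 14 subunits of the chaperonin CCT and prefoldin, which fold newly made actin, 7 were higher and 7 lower with a median of -0.03. The bright sums lay above both control sums for 5 of the 14 and below both for 5. *Cct8* and *Tcp1*, both CCT subunits, had 1.07 ± 0.52 and 0.92 ± 0.44 and the prefoldin subunit *Pfdn4* -0.97 ± 0.99. In dim CMs *Cct8* and *Tcp1* overlapped control (0.62 ± 0.54 and 0.72 ± 0.48) and *Pfdn4* had -1.75 ± 1.15.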

How the data were processed

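Single CMs of 5 mice were sequenced with SMART-seq2. The authors mapped reads with STAR to the mouse genome extended by the human BAG3 and eGFP sequences and deposited raw counts of uniquely mapped reads per gene as whole numbers; build, annotation and strand setting are not given in the sources used here. The mouse was the replicate. All cells of 1 mouse with the same brightness label were added up, giving 8 sums, which are reported as CPM and were tested with edgeR 4.0.16 (filterByExpr, TMM, quasi-likelihood test, threshold 0.05), which was checked on simulated data. Shares of summed counts were compared by two-sided exact permutation tests over mice. Intervals and floors (3 counts) cover counting error only, since reads were not collapsed to molecules.

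The alternatives were DESeq2 1.42.0, library size, no filter on counts, only those cells in which 1000 genes were detected, and all 8 sums in 1 fit. Others were the library set or the mouse as a block, and shares per kb, as medians over cells and over a wider denominator. Each mouse was also left out, or each sum for bright against dim. Bright and dim sums are paired, since each homozygous mouse gave one of either kind. Over 13439 genes, not independent of each other, M25 minus M116 in bright and in dim sums correlated with r = 0.0819 (Spearman 0.119).

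The members and lists were chosen with earlier results of these data known. Named are the 7 members, *Actg2*, *Tpm3* and *Tpm4*, per list up to 3 non-overlapping genes with the largest change in bright against control, and the 5 genes most alike over cells (log2(CPM + 1), at least 1000 genes); cells, wells and single marker genes were singled out after their values were seen. Transcript lengths and words of 75 bases refer to the principal transcript of GENCODE M21. Proteins were not analysed here.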

Additional observations from a re-analysis of the deposited data

Results flagged for a closer look

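*Tpm1* was lower in bright than in dim CMs of both homozygous mice and higher in cells labelled bright of the heterozygous mouse M72. The log2 ratio of CPM was -0.16 in M25, -0.02 in M116 and 0.029 in M72. Without the 3 wells of M25 bright with few CM markers, the M25 value was -0.06. The difference between the genotypes was not tested, since there was 1 heterozygous mouse, whose transgene counts ran against its brightness labels.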

How the results depend on the processing

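With 2 mice a group, the counts of called genes stayed the same in all 3 comparisons with library size in place of TMM and with only cells of at least 1000 genes, but moved with other choices. For bright against control (2 genes), DESeq2 called 106, no filter 163, all 8 sums in 1 fit 5 and the library set as a block 10, 3 were called without the low wells, and leaving out a mouse gave 0 to 41, with 0 without M26, 15 without M25 and 41 without M116. For dim against control (0 genes) these were 55, 58, 1 and 12, with 3 to 827 when a mouse was left out (827 without M26, 3 without M73, 10 without M25, 8 without M116). For bright against dim (0 genes), DESeq2 called 89, no filter 217 and leaving out a sum 0 to 74, the latter without the bright sum of M116. With the mouse as a replicate block for the paired sums the number stayed at 0, and the only member to turn was *Acta1* (-0.050).

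The differences in share between bright and control CMs, in percentage points, moved by more than the spread between mice within library sets GL-9122b and GL9989, to -1.26 and 2.43 for *Acta1*, -0.95 and 4.98 for *Acta2*, 0.21 and -1.15 for *Actb* with *Actg1*, and 0.021 and 0.194 for *Tpm2*, and to 0 for *Tpm2* as the median over cells. Leaving out a mouse gave -0.50 to 1.68, 0.32 to 3.71, -0.99 to 0.048 and 0.023 to 0.192.

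Of 252 alternative values of the members' log2 fold changes, 221 kept their direction without passing the test, 29 turned and 2 passed it (*Acta1* and *Acta2* in dim CMs without M26). None of these values of *Tpm1* turned. In bright against control CMs, *Actc1* became 0.29 with library size, 0.031 with no filter, 0.0092 with all 8 sums, 0.035 with the library set as a block and 0.053 without the 3 low wells, and *Acta1* -0.017 without the highest *Acta1* cell of each sum. In dim against control CMs, *Actb* became 0.19 with library size and *Acta1* -0.28 without these cells. In bright against dim CMs, *Actc1* became 0.016 without the low wells. Leaving out each mouse gave, for bright against control, -0.31 to 0.40 for *Actc1*, -1.84 to 6.47 for *Acta1*, -0.074 to 1.89 for *Acta2*, -0.82 to -0.28 for *Actb*, 0.31 to 1.24 for *Actg1*, -0.57 to -0.28 for *Tpm1* and 3.34 to 10.8 for *Tpm2*. For dim against control it gave -0.30 to 0.45 for *Actc1*, -1.21 to 6.16 for *Acta1*, -0.045 to 1.96 for *Acta2*, -0.24 to 0.05 for *Actb*, 0.47 to 1.44 for *Actg1*, -0.46 to -0.14 for *Tpm1* and 3.05 to 9.50 for *Tpm2*. The highest values of *Actg1* and *Tpm2* were those without M26. For bright against dim, each of the 4 sums was left out instead, with the other sum of that mouse kept. This gave -0.089 to 0.032 for *Actc1*, -1.99 to 1.74 for *Acta1*, -0.63 to 0.36 for *Acta2* and -0.77 to -0.16 for *Actb*. The values were -0.43 to 0.14 for *Actg1*, -0.18 to -0.05 for *Tpm1* and -1.09 to 2.47 for *Tpm2*. A class left with 1 sum was taken to vary like the other group. The leaving out of low wells and of the highest *Acta1* cells was chosen after seeing the data, and the cause of these shifts was not tested. M73, with 9 cells and 4096609 counts, limits every comparison with control.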
